A study of Mus musculus with 16 samples.

Results

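The genes described here encode 4 sets of membrane proteins that set and spread the electrical impulse of the heart. They are Scn4b, an auxiliary beta subunit of voltage-gated sodium channels; Hcn2 and Hcn4, which form hyperpolarization-activated pacemaker channels; Cacna1g and Cacna1h, the pores of T-type calcium channels; and Gja1, Gja5 and Gjc1, the connexins of cardiac gap junctions. The set was named by function, with no threshold on its values, but with earlier results of these data known. All 8 were found among the 55573 genes of the count table, and all 8 were among the 16857 genes with enough reads to be tested.

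The study asked how raising the long noncoding RNA Cardinal in heart muscle changes the response to pressure overload. Wild-type male mice received an adeno-associated virus (AAV9) under the skin on postnatal day 1. The virus carried either GFP (AAV9-cTNT-GFP) or mouse Cardinal (AAV9-cTNT-CARDINAL) behind the cTNT promoter, which drives expression in cardiomyocytes, so all 16 mice carried a vector. Mice then had sham surgery or transverse aortic constriction (TAC), which narrows the aorta and loads the left ventricle, and polyadenylated RNA was sequenced from the apex of the heart 4 weeks later. There were 4 mice in each of 4 groups, named here by the virus (AAV9-GFP or AAV9-Cardinal) and the surgery (sham or TAC). The age of the mice at surgery was not given in the sources used here.

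A beat starts in nodal cells, where Hcn4 carries much of the pacemaker current and T-type channels help the membrane reach threshold. It then runs through the conduction system, rich in Gja5, into the working ventricle, where sodium channels with their beta subunits drive the upstroke and Gja1 passes current from cell to cell at the intercalated disc. Hcn2, Hcn4 and the T-type channels are known from the fetal ventricle and can return in overloaded ventricles, and the repressor Rest is known to hold several of them down. The samples came from the apex, so they report on working ventricle and its distal conduction fibers, not on the nodes.

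The libraries held 16441997 to 21904589 counts each, with a median of 21723766. Levels below are CPM, a normalised read count that divides by library sizes scaled by the trimmed mean of M values, and 3 counts correspond to 0.126 to 0.195 CPM. Gm12295, the mouse Cardinal gene, ranged from 3.42 to 7.24 CPM in the AAV9-GFP mice and from 18.3 to 93.9 CPM in the AAV9-Cardinal mice, so every library matched its virus label. The overload gene Nppa ranged from 41.6 to 106 CPM after sham surgery and from 183 to 1396 CPM after TAC, so every library matched its surgery label too. The summed CPM of 8 cardiomyocyte markers was 46422 to 49041 in AAV9-GFP sham, 35494 to 42500 in AAV9-GFP TAC, 44585 to 49007 in AAV9-Cardinal sham and 42214 to 46943 in AAV9-Cardinal TAC. Atrial markers summed to at most 2.53 CPM in any mouse, and the Purkinje and conduction cell markers to between 23.5 and 36.6 CPM.

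In both TAC groups, the mouse numbered 1 stood apart from its 3 group mates. A chi-square statistic between libraries, divided by its degrees of freedom, was 12.4 to 14.9 for the pairs that held AAV9-GFP TAC replicate 1 and 7.68 to 10.1 for the other pairs of that group. The values were 12.4 to 13.5 with AAV9-Cardinal TAC replicate 1 and 5.10 to 7.58 among the others. These 2 mice were singled out after their values were seen, and calls that change without both of them are given both ways. AAV9-Cardinal TAC replicate 1 also had far more Cardinal RNA than its group mates, with Gm12295 at 93.9 CPM against 18.3, 19.5 and 20.6 CPM. Among the sham mice, AAV9-GFP sham replicate 4 stood apart by the same statistic, at 10.8 to 14.6 in its pairs against 5.13 to 9.23 in the other pairs of its group, and Scn4b was called with and without it.

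The 8 genes covered a wide range of levels, and the order of their means was the same in all 4 groups. Levels between genes are compared as CPM per kilobase of annotated exon. In AAV9-GFP sham hearts, Gja1 led at 26.0 ± 2.15 (SD, n = 4), followed by Scn4b at 8.33 ± 0.956. Hcn2 stood at 4.24 ± 0.871 and Gjc1 at 2.76 ± 0.235. The T-type pore Cacna1g reached 1.49 ± 0.198 and Hcn4 reached 1.13 ± 0.119. Gja5 followed at 0.754 ± 0.0543, and Cacna1h was lowest at 0.538 ± 0.0168. No neighbors in this order had overlapping ranges in either sham group. After TAC with either virus, the ranges of Scn4b and Hcn2 overlapped, and so did those of Hcn2 and Gjc1 and those of Gja5 and Cacna1h. In AAV9-GFP TAC the ranges of Cacna1g and Hcn4 overlapped too, as did those of Hcn4 and Gja5. Hcn2 was above Hcn4, and Cacna1g above Cacna1h, in the means of every group.

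**Figure D1:**
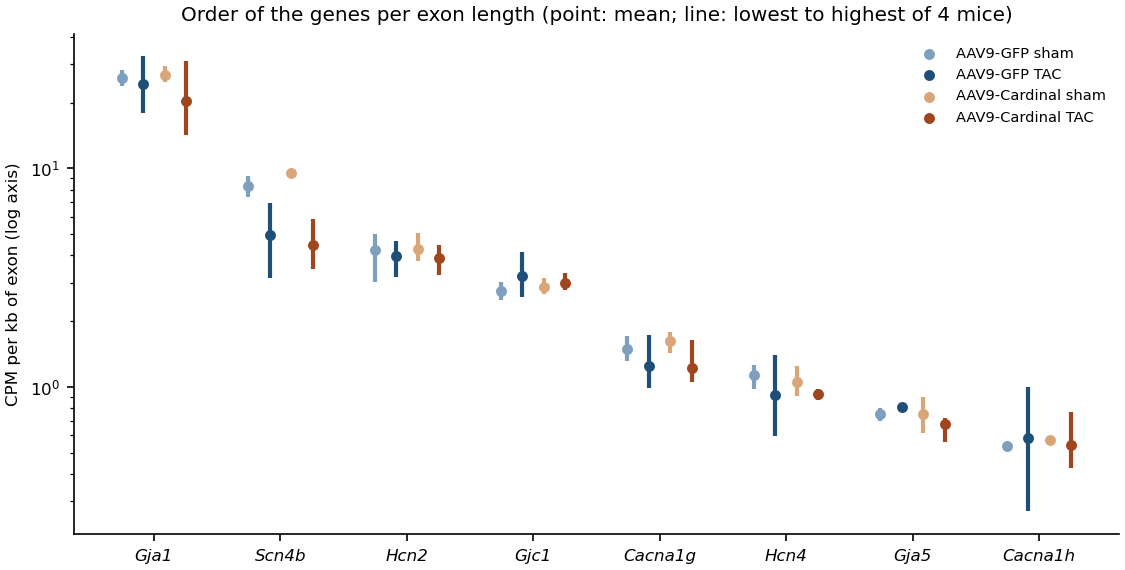
CPM per kilobase of exon (log axis) of the 8 genes in each group, with the mean as a point and the lowest to highest of 4 mice as a line. In AAV9-GFP sham, Gja1 is highest at 26.0 and Cacna1h lowest at 0.538, and the TAC lines of Scn4b come down to those of Hcn2.

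Scn4b was the member that changed with pressure overload. In AAV9-GFP hearts its level fell by 40.8%, and in AAV9-Cardinal hearts it fell by 53.1%. Scn4b lies on chromosome 9 (chr9:45138395-45154152, plus strand, GRCm38), and its exons shared no bases and no 50-base stretch with another annotated gene. It was the single member called among 8 in each virus group, with the threshold set at 0.05 for the adjusted p of edgeR's quasi-likelihood test. The share of all tested genes called was 17.4% in AAV9-GFP (8.92% lower) and 6.48% in AAV9-Cardinal (3.38% lower), so the count of 1 in 8 is not read as a result about the set. An unadjusted p under 0.05 was reached by 1 of 8 members with AAV9-GFP, beside 29.9% of all tested genes, and by 2 of 8 with AAV9-Cardinal (Scn4b and Cacna1g), beside 21.8%. Sham and TAC mice did not overlap for 1 of 8 members in each case, beside 20.3% and 13.7% of all tested genes.

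The sham values of Scn4b in AAV9-GFP mice 1, 2, 3 and 4 were 37.0, 45.2, 46.0 and 37.7 CPM. In AAV9-GFP TAC mice 1, 3, 4 and 7 they were 34.5, 21.6, 26.4 and 15.7 CPM. All 4 TAC mice were below all 4 sham mice, with replicate 1 the nearest to the sham range. The log2 fold change was -0.76 (SE 0.19, 95% confidence interval -1.16 to -0.35, edgeR adjusted p = 0.012), and the exact two-sided permutation test gave p = 0.0286, the smallest that 4 against 4 allows. In AAV9-Cardinal sham mice 1 to 4 the values were 49.4, 45.1, 48.3 and 46.6 CPM, and in TAC mice 1, 4, 5 and 6 they were 29.1, 20.5, 17.3 and 21.9 CPM. The groups again did not overlap, and replicate 1 was again the highest of the TAC mice. The log2 fold change was -1.09 (SE 0.19, 95% confidence interval -1.50 to -0.69, edgeR adjusted p = 0.00533, exact permutation p = 0.0286). It was called in all 16 fits that left out 1 mouse, with either virus.

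The cardiomyocyte markers moved in the same comparisons, and in bulk tissue fewer cells of a type and less RNA per cell cannot be told apart. After TAC, 6 of the 8 cardiomyocyte markers were called lower with AAV9-GFP and 1 of 8 (Pln) with AAV9-Cardinal, beside 8.92% and 3.38% of all tested genes. The difference in TAC response between viruses called 0 of these 8 markers. Divided by the summed cardiomyocyte markers of the same mouse, a scale added after the data were seen, Scn4b in AAV9-GFP went from 0.880 ± 0.112 to 0.618 ± 0.165 CPM per 1000 marker CPM (SD, n = 4). The log2 ratio of the means was -0.51, the groups overlapped, and the exact permutation p was 0.0857. In AAV9-Cardinal the same ratio went from 1.01 ± 0.0888 to 0.494 ± 0.135, with a log2 ratio of -1.04, no overlap and an exact permutation p of 0.0286. Relative to cardiomyocyte markers the fall of Scn4b therefore passed the test in AAV9-Cardinal hearts and missed it in AAV9-GFP hearts; the difference between these ratios was not tested. This scale was computed for all 8 genes with each virus, 16 comparisons in all, and these exact p values are not adjusted for their number.

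The fall of Scn4b was not shown to differ between the viruses. The difference in TAC response, AAV9-Cardinal minus AAV9-GFP, was -0.34 on the log2 scale (SE 0.27, 95% confidence interval -0.90 to 0.23, edgeR adjusted p = 0.697). Between viruses, Scn4b differed by 0.19 in sham hearts (95% confidence interval -0.20 to 0.59, edgeR adjusted p = 1) and by -0.15 in TAC hearts (-0.55 to 0.26, edgeR adjusted p = 0.793). Among genes that averaged 1 CPM or more, the profiles most like that of Scn4b over the 16 mice were Mpped2, with a root mean square difference of 0.162 in centered log2 CPM, and Carns1, which makes the muscle dipeptide carnosine, with 0.188.

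**Figure D2:**
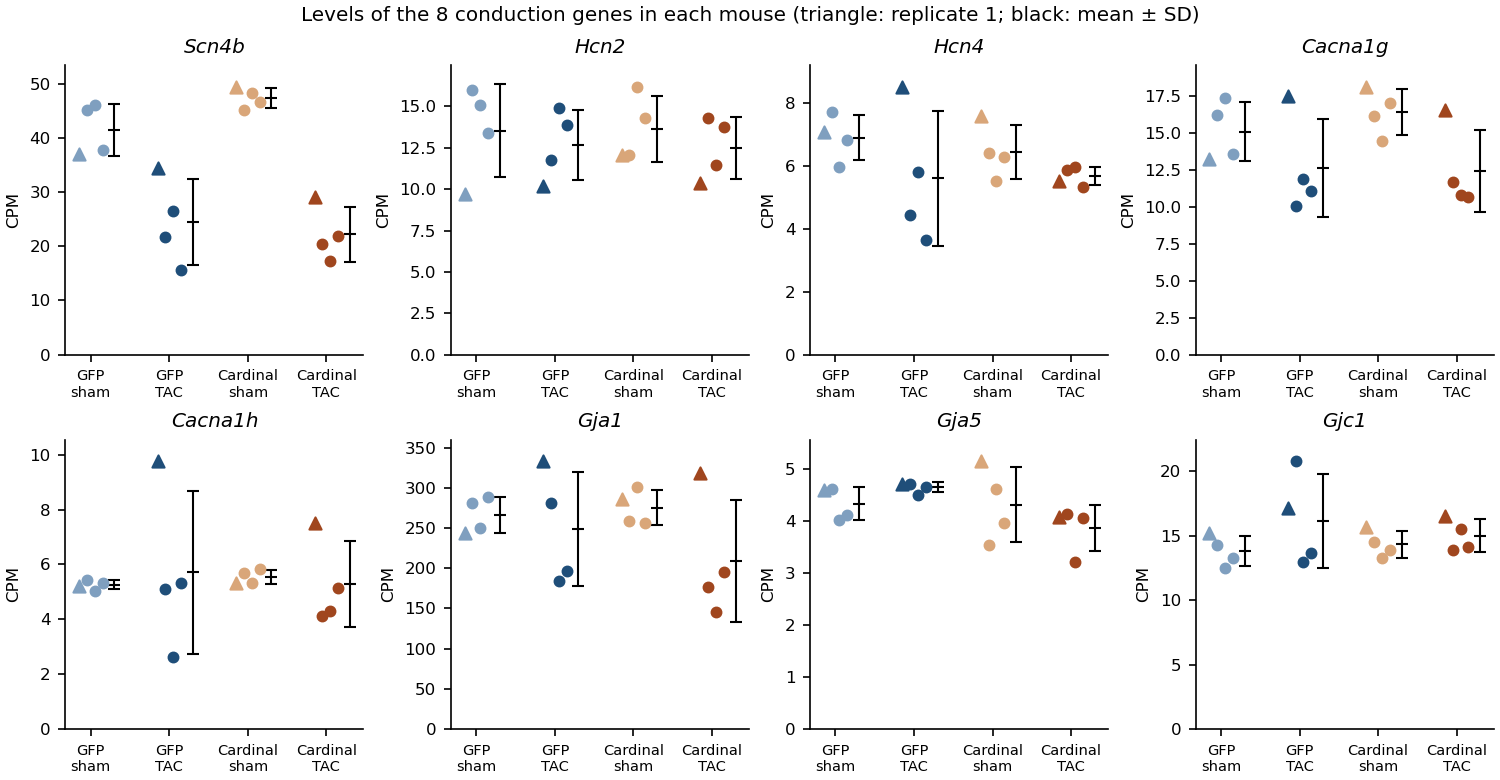
CPM of each gene in each of the 16 mice (vertical axes from 0), by group, with replicate 1 as a triangle and the mean ± SD in black. The Scn4b TAC points lie at 15.7 to 34.5 CPM, below all sham points, and the TAC triangles of Gja1, Cacna1g and Cacna1h sit above the other TAC mice.

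The pacemaker channel genes did not pass the test in any comparison of all 16 mice. Hcn2 (chr10:79716634-79736108, plus strand, GRCm38) ranged from 9.70 to 15.99 CPM in AAV9-GFP sham and from 10.2 to 14.9 CPM in AAV9-GFP TAC. In AAV9-Cardinal it ranged from 12.0 to 16.2 CPM after sham and from 10.4 to 14.3 CPM after TAC. The log2 fold changes with TAC were -0.09 (95% confidence interval -0.44 to 0.25) and -0.13 (-0.47 to 0.22). With AAV9-GFP the TAC range lay within the sham range, and with AAV9-Cardinal the ranges overlapped in part.

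Hcn4 (chr9:58823412-58863175, plus strand, GRCm38) was 7.09, 7.73, 5.98 and 6.84 CPM in AAV9-GFP sham mice 1 to 4 and 8.53, 4.45, 5.82 and 3.65 CPM in AAV9-GFP TAC mice 1, 3, 4 and 7. TAC replicate 1 held the highest value of all 16 mice, while the other 3 TAC mice lay below every AAV9-GFP sham mouse. Across all mice the log2 fold change was -0.30 (SE 0.19, edgeR adjusted p = 0.327). Without both TAC mice numbered 1 it was -0.57 (edgeR adjusted p = 0.0158). In AAV9-Cardinal hearts the mean went from 6.46 ± 0.853 to 5.68 ± 0.291 CPM (SD, n = 4), a log2 fold change of -0.19 (edgeR adjusted p = 0.643), or -0.17 (adjusted p = 0.527) without those 2 mice. No rise of either pacemaker gene passed the test in these apex samples, and the upper 95% bounds of the fold changes were at most 0.25 for Hcn2 and 0.23 for Hcn4 on the log2 scale.

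The T-type gene Cacna1g (chr11:94408391-94474198, minus strand, GRCm38) was 13.2, 16.2, 17.3 and 13.5 CPM in AAV9-GFP sham mice 1 to 4. In AAV9-GFP TAC mice 1, 3, 4 and 7 it was 17.5, 10.03, 11.9 and 11.1 CPM. The AAV9-Cardinal sham mice 1 to 4 had 18.1, 16.1, 14.5 and 17 CPM, and the TAC mice 1, 4, 5 and 6 had 16.5, 11.7, 10.8 and 10.6 CPM. With each virus, 3 TAC mice lay below all 4 sham mice and replicate 1 lay within or above the sham range. The log2 fold changes over all mice were -0.26 (SE 0.17, edgeR adjusted p = 0.349) with AAV9-GFP and -0.40 (SE 0.17, edgeR adjusted p = 0.182) with AAV9-Cardinal. Without both TAC mice numbered 1 they were -0.45 (edgeR adjusted p = 0.00917) and -0.57 (edgeR adjusted p = 0.00553).

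Cacna1h (chr17:25374285-25433783, minus strand, GRCm38), the other T-type pore, was tightly grouped after sham surgery and scattered after TAC. It ranged from 5.05 to 5.43 CPM in AAV9-GFP sham and from 5.33 to 5.84 CPM in AAV9-Cardinal sham. The AAV9-GFP TAC mice 1, 3, 4 and 7 had 9.77, 5.12, 2.62 and 5.30 CPM, and the AAV9-Cardinal TAC mice 1, 4, 5 and 6 had 7.52, 4.14, 4.28 and 5.16 CPM. Replicate 1 was the highest of its TAC group in both cases. The log2 fold changes were 0.12 (95% confidence interval -0.47 to 0.71) and -0.07 (-0.66 to 0.53), the widest intervals of the 8 genes, and without both mice numbered 1 they were -0.27 (edgeR adjusted p = 0.351) and -0.29 (edgeR adjusted p = 0.354). Of its exon bases, 1.62% overlap the antisense gene Tpsg1, and reads there could belong to either gene if strand was not used in counting.

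Gja1 (chr10:56377330-56402513, plus strand, GRCm38), the connexin of working ventricular muscle, spread widely among the TAC mice. AAV9-GFP sham mice 1 to 4 had 244, 281, 251 and 289 CPM, and AAV9-GFP TAC mice 1, 3, 4 and 7 had 334, 281, 184 and 196 CPM. AAV9-Cardinal sham mice 1 to 4 had 286, 258, 302 and 256 CPM, and TAC mice 1, 4, 5 and 6 had 319, 177, 146 and 195 CPM. In each TAC group replicate 1 was above every sham mouse of its virus, and in AAV9-Cardinal the other 3 TAC mice were below every sham mouse. The log2 fold change was -0.10 (SE 0.21, edgeR adjusted p = 0.820) with AAV9-GFP and -0.40 (SE 0.21, edgeR adjusted p = 0.295) with AAV9-Cardinal. Without both TAC mice numbered 1 these were -0.27 (edgeR adjusted p = 0.204) and -0.67 (edgeR adjusted p = 0.00870).

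The summed fibroblast markers also set AAV9-Cardinal TAC replicate 1 apart. They came to 682 CPM in that mouse and to between 424 and 454 CPM in its 3 group mates. In AAV9-GFP TAC they were 667 CPM in replicate 1, the lowest of its group, and up to 877 CPM in the others. Gja1 is also made by fibroblasts, and the part of these cells, or of the high Cardinal level of AAV9-Cardinal TAC replicate 1, in the levels of Gja1 and Cacna1g was not tested. Nppa did not single out AAV9-GFP TAC replicate 1, at 434 CPM against 431 CPM in replicate 4, and in AAV9-Cardinal it was highest in replicate 1, at 399 CPM against 183 to 241 CPM. Over the 8 genes, the mouse numbered 1 held the highest TAC value for 6 in AAV9-GFP and for 5 in AAV9-Cardinal, and AAV9-Cardinal sham replicate 1 also held the highest value of its group for 5. Without both TAC mice numbered 1, the members called lower rose to 3 of 8 with AAV9-GFP (Scn4b, Hcn4 and Cacna1g) and to 3 of 8 with AAV9-Cardinal (Scn4b, Cacna1g and Gja1), while 19.1% and 10.4% of all tested genes were then called in either direction. Scn4b was called with and without these mice, at -0.96 and -1.25 on the log2 scale when they were left out.

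Gja5 (chr3:96904693-97077416, plus strand, GRCm38), the connexin of the conduction system and of arterial endothelium, was the least abundant of the 3 connexins. AAV9-GFP sham mice 1 to 4 had 4.59, 4.61, 4.02 and 4.11 CPM, and AAV9-GFP TAC mice 1, 3, 4 and 7 had 4.71, 4.70, 4.51 and 4.65 CPM. AAV9-Cardinal sham mice 1 to 4 had 5.15, 3.53, 4.61 and 3.96 CPM, and TAC mice 1, 4, 5 and 6 had 4.07, 4.14, 3.21 and 4.05 CPM. After TAC, every mouse with AAV9-Cardinal had less Gja5 than any mouse with AAV9-GFP, while the sham groups overlapped. The difference between viruses in TAC hearts was -0.26 on the log2 scale (SE 0.11, 95% confidence interval -0.50 to -0.03), with an unadjusted edgeR p of 0.0323, an edgeR adjusted p of 0.280 and an exact permutation p of 0.0286, so it did not survive correction over all genes. Groups of 4 did not overlap for 6.77% of all tested genes in this comparison, and Gja5 was the only 1 of the 8 members among them. Summed arterial endothelial markers were 73.5 to 90.3 CPM in AAV9-GFP TAC and 71.9 to 75.4 CPM in AAV9-Cardinal TAC, and their part in the Gja5 difference was not tested. Divided by the cardiomyocyte markers, Gja5 in AAV9-GFP was 0.0918 ± 0.00784 after sham and 0.119 ± 0.0106 CPM per 1000 marker CPM after TAC (SD, n = 4), a log2 ratio of 0.37 with no overlap and an unadjusted exact permutation p of 0.0286, where plain CPM gave 0.10 with overlap. In the Gja5 annotation, 15.3% of 50-base stretches also occur in another gene (Gpr89 or Zfp697) and 2.87% of exon bases overlap antisense Gpr89, so its counts of 61 to 114 per mouse depend on how shared reads were assigned.

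Gjc1 (chr11:102799579-102819700, minus strand, GRCm38), a connexin of nodal cells and of the early heart tube, ranged from 12.5 to 15.2 CPM in AAV9-GFP sham and from 12.9 to 20.8 CPM in AAV9-GFP TAC. In AAV9-Cardinal it ranged from 13.3 to 15.7 CPM after sham and from 13.9 to 16.5 CPM after TAC. Its log2 fold changes were 0.23 (SE 0.12, edgeR adjusted p = 0.244) and 0.07 (SE 0.13, edgeR adjusted p = 0.831). The 20.8 CPM of AAV9-GFP TAC replicate 3 was the highest Gjc1 value of all mice, and without that mouse the AAV9-GFP value was 0.08. Divided by the cardiomyocyte markers, the AAV9-GFP log2 ratio was 0.51, with overlap and an unadjusted exact permutation p of 0.0571.

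Between the viruses, 0 of the 8 members were called by edgeR. In TAC hearts 0.101% of tested genes were called and 1 member, Gja5, had an unadjusted p under 0.05, beside 15.0% of tested genes. In sham hearts 0.0119% of tested genes were called, and 0 members had an unadjusted p under 0.05, beside 2.59% of tested genes, or groups that did not overlap, beside 2.36%. The difference in TAC response also called 0.0119% of tested genes, with 0 members at an unadjusted p under 0.05, beside 10.2% of tested genes. DESeq2 called 0 members in each of these 3 comparisons. The 95% confidence intervals for the sham difference reached 0.67 in size on the log2 scale for Cacna1h and stayed within 0.59 for the other 7 genes.

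**Figure D3:**
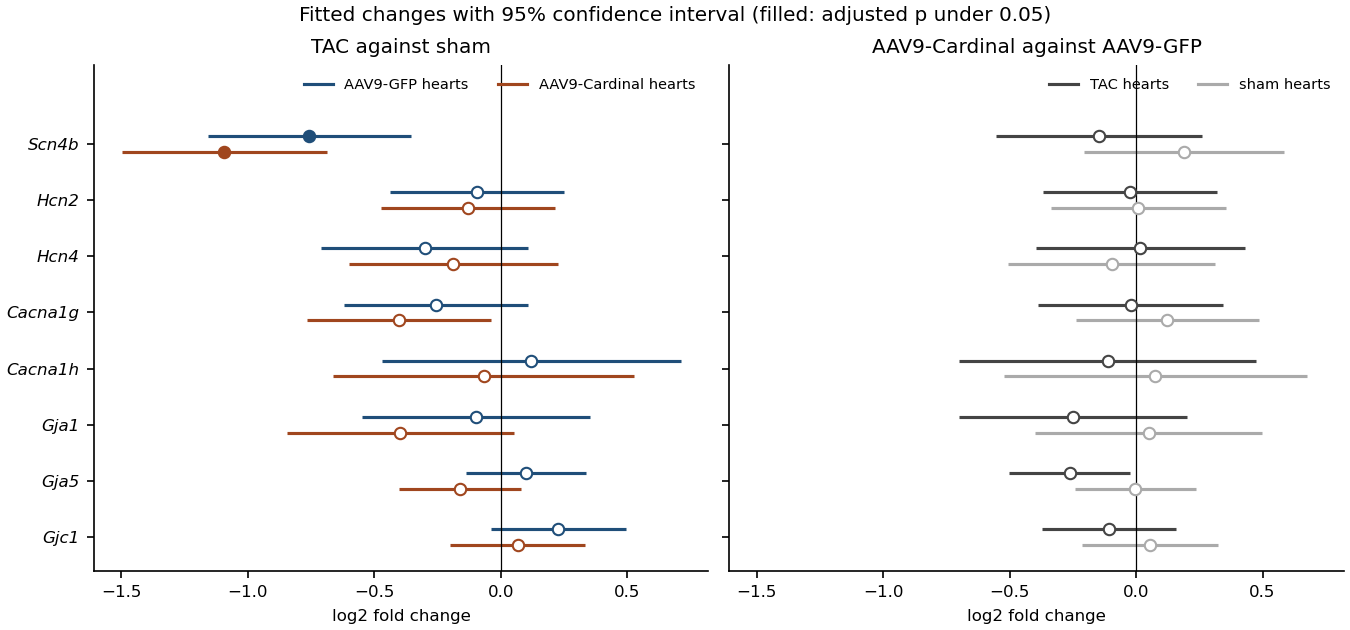
Log2 fold changes of the 8 genes (horizontal axis) with 95% confidence intervals, for TAC against sham with each virus on the left and for AAV9-Cardinal against AAV9-GFP on the right. Filled points have an adjusted p under 0.05, which only Scn4b reaches, at -0.76 and -1.09.

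The related genes of impulse generation and spread were taken from a list of 71, of which 48 were tested. The list was chosen by function, with earlier results of these data known. In AAV9-GFP hearts TAC called 15 of these 48, with 5 higher and 10 lower, beside 8.49% higher and 8.92% lower of all tested genes. In AAV9-Cardinal hearts TAC called 6 of 48, with 2 higher and 4 lower, beside 3.10% and 3.38%. The median log2 fold change of the 48 was 0.02 and -0.01, against medians of 0.01 and -0.0005 for all tested genes. Between viruses, edgeR called 0 of the 48 in TAC hearts. There 15 of the 48 had an unadjusted p under 0.05, a larger share than the 2528 of all 16857 tested genes (15.0%). DESeq2 called 4 of the 48 in TAC hearts, beside 339 of the 16857. In sham hearts edgeR called 0 of the 48, 0 had an unadjusted p under 0.05 and DESeq2 called 0.

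Among the related sodium channel genes, 3 of 11 tested were called with each virus, beside 17.4% of all tested genes with AAV9-GFP and 6.48% with AAV9-Cardinal. Scn3b, another beta subunit, was scarce at 0.638 ± 0.179 CPM (SD, n = 4) in AAV9-GFP sham hearts and rose to 1.22 ± 0.208 CPM after TAC, while Scn4b fell. Its log2 fold change was 0.92 (SE 0.27, edgeR adjusted p = 0.0263), and its call was lost without AAV9-GFP sham replicate 2, 3 or 4 or TAC replicate 7, at adjusted p values up to 0.0835, and without both TAC mice numbered 1, at 0.0552. In AAV9-Cardinal hearts Scn3b gave 0.02 (edgeR adjusted p = 0.987). The difference in TAC response between viruses did not pass the test for Scn3b (-0.90, SE 0.39, edgeR adjusted p = 0.452). Fgf13, an intracellular sodium channel modulator, fell with both viruses, by 0.80 (edgeR adjusted p = 4.65e-05) and 0.55 (edgeR adjusted p = 0.00420) on the log2 scale. Scn4a, the skeletal muscle pore, passed the test in AAV9-Cardinal at -1.12 (edgeR adjusted p = 0.0212) and not in AAV9-GFP at -0.64 (edgeR adjusted p = 0.102). Its AAV9-Cardinal call was lost without any 1 of sham replicates 2 and 4 and TAC replicates 4, 5 and 6, at adjusted p values up to 0.0755, and without AAV9-GFP TAC replicate 1 the AAV9-GFP value was -0.98 (edgeR adjusted p = 0.00571), or -0.99 (edgeR adjusted p = 0.00298) without both TAC mice numbered 1.

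None of the 3 other pacemaker and T-type genes tested was called by edgeR in either TAC comparison. Of the 4 other connexin and pannexin genes tested, Panx1, a membrane channel that releases ATP, rose from 1.16 ± 0.161 to 2.47 ± 0.723 CPM (SD, n = 4) in AAV9-GFP hearts (log2 fold change 1.09, edgeR adjusted p = 0.0104). Gja3, a connexin best known from the lens, fell there from 10.6 ± 0.714 to 7.76 ± 1.79 CPM (-0.45, edgeR adjusted p = 0.0369), and this call was lost in 6 of 16 fits that left out 1 mouse (without AAV9-GFP sham replicate 1, 2 or 3 or TAC replicate 3, 4 or 7, adjusted p up to 0.109). With all mice kept it was also lost with no filter on low counts (adjusted p = 0.0570) and with only the 8 mice compared in the fit (adjusted p = 0.0702). In AAV9-Cardinal neither passed over all mice, at 0.60 (edgeR adjusted p = 0.226) for Panx1 and -0.42 (edgeR adjusted p = 0.0860) for Gja3. Gja3 passed there without both TAC mice numbered 1 (-0.50, edgeR adjusted p = 0.0100) and without AAV9-GFP TAC replicate 1 alone (-0.42, edgeR adjusted p = 0.0269).

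At the intercalated disc, which seats Gja1 and sodium channels, Xirp2 rose with both viruses, by log2 fold changes of 1.54 (edgeR adjusted p = 8.01e-06) and 1.24 (edgeR adjusted p = 0.000516). The desmosomal cadherin Dsg2 fell by 0.69 (edgeR adjusted p = 0.00383) and 0.53 (edgeR adjusted p = 0.0379), and the catenin Ctnna1 fell by 0.39 in AAV9-GFP (edgeR adjusted p = 0.000337) with -0.13 (edgeR adjusted p = 0.199) in AAV9-Cardinal. Tjp1, the scaffold that binds Gja1, gave 0.06 (edgeR adjusted p = 0.617) and 0.05 (edgeR adjusted p = 0.758). The Dsg2 call in AAV9-Cardinal was lost in 8 of the 16 fits that left out 1 mouse (without any AAV9-Cardinal sham mouse, without TAC replicate 4, 5 or 6, or without AAV9-GFP sham replicate 2), at adjusted p values up to 0.114, and with no filter on low counts, at 0.0662.

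Of the 18 conduction and pacemaker transcription factors tested, 6 were called in AAV9-GFP hearts and 0 in AAV9-Cardinal hearts, beside 17.4% and 6.48% of all tested genes. The difference between these counts was not tested. Tbx5, which drives conduction system genes such as Gja5, fell by 0.53 (edgeR adjusted p = 0.0345) in AAV9-GFP and gave -0.07 (edgeR adjusted p = 0.865) in AAV9-Cardinal. Hopx and Klf15 fell by 0.80 (edgeR adjusted p = 0.000510) and 0.71 (edgeR adjusted p = 0.00427) in AAV9-GFP, and Irx5 rose by 0.76 (edgeR adjusted p = 0.0460). In AAV9-Cardinal the 16 fits that left out 1 mouse gave -0.32 to -0.17 for Hopx and -0.40 to -0.16 for Klf15, with 0 calls. They gave 0.50 to 1.03 for Irx5, called in 1 fit, without AAV9-Cardinal sham replicate 1 (edgeR adjusted p = 0.027). The Tbx5 call was lost without AAV9-GFP sham replicate 1 or 2 or TAC replicate 3, 4 or 7, at adjusted p values up to 0.122, and with all mice kept under no filter on low counts (0.0555) or only the 8 mice compared (0.0656). The Irx5 call in AAV9-GFP was lost in 10 of 16 fits that left out 1 mouse, at adjusted p values up to 0.132, under no filter on low counts (0.0810), and without both TAC mice numbered 1 (0.0799). Nkx2-5 gave 0.09 (edgeR adjusted p = 0.555) and 0.02 (edgeR adjusted p = 0.939). Rest, the repressor of pacemaker and T-type genes, gave 0.12 (edgeR adjusted p = 0.460) in AAV9-GFP and 0.33 (edgeR adjusted p = 0.0505) in AAV9-Cardinal, just above the threshold. With all mice kept, Rest passed under DESeq2 (adjusted p = 0.0308), RLE size factors (edgeR adjusted p = 0.0494) and a filter of 1 CPM in 4 mice (edgeR adjusted p = 0.0435). It also passed without AAV9-Cardinal sham replicate 1 (0.42, edgeR adjusted p = 0.0294) or TAC replicate 1 (0.36, edgeR adjusted p = 0.0461), and without both TAC mice numbered 1 (0.36, edgeR adjusted p = 0.0482). Rest was called in AAV9-Cardinal in only 2 of the 16 fits that left out 1 mouse, with edgeR adjusted p values up to 0.122. In the other settings it was called in 3 of 8, with adjusted p values up to 0.302.

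**Figure D4:**
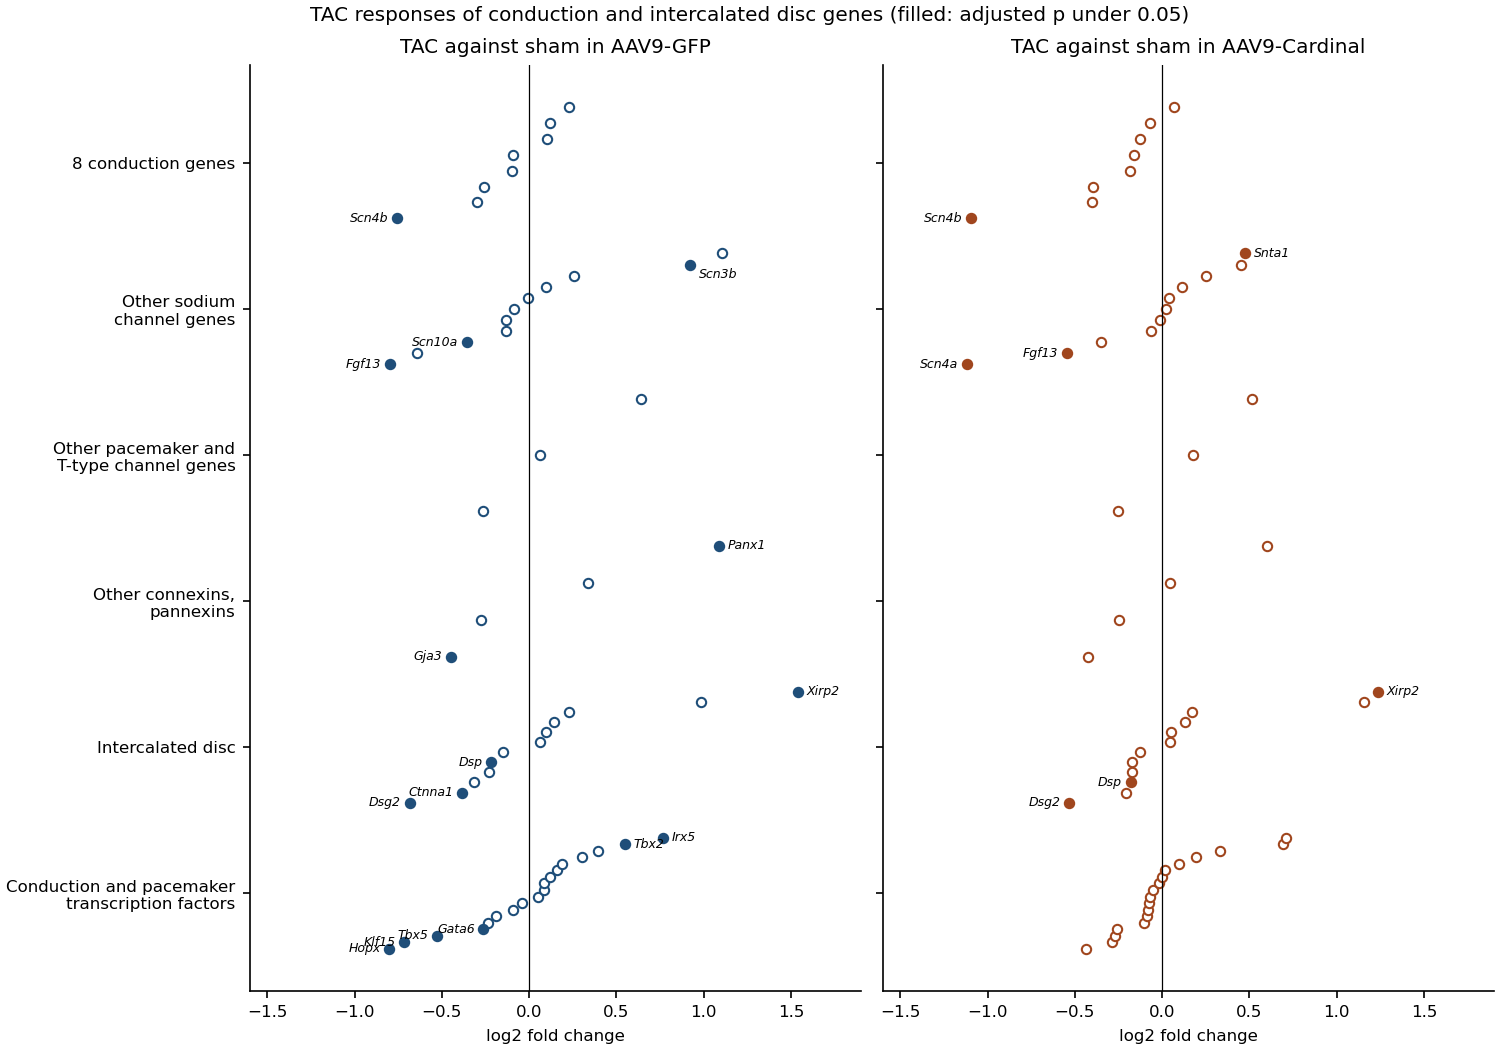
Log2 fold changes with TAC (horizontal axis) of the 8 genes and of 5 lists of related genes, with AAV9-GFP on the left and AAV9-Cardinal on the right and genes ordered by value within each list. Filled, named points have an adjusted p under 0.05, which holds for 15 of 48 related genes on the left and 6 of 48 on the right.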

How the data were processed

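The authors deposited 1 table of raw read counts per gene for 16 mice, made from single-end reads of 50 bases from polyadenylated RNA of the heart apex. The submitters' processing notes name FastQC, HISAT2 2.1.0, edgeR 3.26.1 and the GRCm38 build, without their roles. The counting program, its annotation, its use of strand and its handling of multi-mapping reads are not given in the sources used here, and vector-derived and endogenous Cardinal reads share 1 row. Gene names were matched by identifier to GENCODE M21 (GRCm38) for 55480 of 55573 genes, and exon length, overlap and shared 50-base stretches come from the same annotation.

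Groups were taken from the sample titles. Genes were filtered with filterByExpr, library sizes were scaled by TMM, and all 16 mice were fitted by group with edgeR 4.0.16 quasi-likelihood tests in R 4.3.3, with 5 contrasts (TAC against sham with each virus, AAV9-Cardinal against AAV9-GFP after each surgery, and the difference in TAC response). Contrasts that share mice are not independent. P-values were adjusted by the Benjamini-Hochberg method over all tested genes, and 0.05 was the threshold. Single values were also compared by exact two-sided permutation over 70 labelings, whose smallest p is 0.029. The difference in TAC response has no such test. The test was checked on simulated counts.

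The 8 genes and all lists were chosen with earlier results of these data known. Some genes of the related list are not reported here and are left out of its counts. Named related genes were Rest, Tbx5, Nkx2-5 and Tjp1 and, per list, up to 3 with the largest change past the threshold and at least 1 CPM in the higher group; Pln, among the marker genes, was named after its values were seen. Alternatives were DESeq2 1.42.0, RLE factors, 2 other count filters, a robust fit, leaving out mitochondrial genes, fitting only the mice compared, CPM on raw totals, a replicate block and each mouse left out. A scale relative to cardiomyocyte markers and a fit without both TAC mice numbered 1 were added after the data were seen. Mitochondrial genes held 30.3% to 34.0% of counts. The chi-square statistic per degree of freedom was 5.10 to 14.9 between mice of 1 group, so no library was a repeat of another in its group. Mice of different groups were not compared in this way. The labels do not say more than that replicates were separate mice. Precision was limited by counting error, with 3 counts at 0.126 to 0.195 CPM, and by the larger spread between mice.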

Additional observations from a re-analysis of the deposited data

Results flagged for a closer look

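Of 96 groups of 4 values examined, in 5 groups 1 mouse stood far from the other 3 by Dixon's test, and chance gives about 4.8. Gja5 in AAV9-Cardinal TAC replicate 5 was 3.213 CPM against 4.052 to 4.135 CPM in the other 3 mice of that group. Tjp1 in the same mouse was 95.13 CPM against 86.19 to 87.66 CPM. Xirp2 in AAV9-GFP sham replicate 4 was 450.6 CPM against 373.9 to 384.4 CPM. Klf15 in AAV9-Cardinal sham replicate 1 was 41.48 CPM against 46.33 to 46.97 CPM. The total of AAV9-Cardinal sham replicate 4 was 16441997 counts against 21603910 to 21786630 counts.

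Gja5 was flagged because its TAC mice lay on opposite sides of the sham mean with the viruses. Its TAC response was called by edgeR with neither virus, and the sham and TAC ranges overlapped with each. All 4 AAV9-GFP TAC mice were above the mean of their sham group and all 4 AAV9-Cardinal TAC mice were below theirs. The difference in response was -0.2605 on the log2 scale, and its test gave an edgeR adjusted p of 0.597, so a difference between the viruses was not shown.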

How the results depend on the processing

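The fall of Scn4b with TAC was called in all 16 fits that left out 1 mouse, at -0.96 to -0.59 on the log2 scale in AAV9-GFP and -1.25 to -0.99 in AAV9-Cardinal. It was also called in 8 of 8 other settings in AAV9-GFP and in 7 of 8 in AAV9-Cardinal, where the replicate block gave -0.95 with an edgeR adjusted p of 0.089. Numbers 5 and 6 occur only in AAV9-Cardinal TAC and number 7 only in AAV9-GFP TAC, so the block sets these mice aside. The blocked TAC responses therefore rested on TAC mice 1 and 4 in AAV9-Cardinal and on TAC mice 1, 3 and 4 in AAV9-GFP, not on all mice. The labels give same-numbered mice no shared origin, and the 16 correlations of their deviations ran from -0.040 to 0.211 with 4 over 0.1, so the numbers were not taken as pairs. All 4 were among the 6 pairs of mice numbered 1, which ran from 0.067 to 0.211. The block took the genes called from 2934 to 2091 in AAV9-GFP, from 1092 to 31 in AAV9-Cardinal, from 17 to 0 between viruses after TAC, and from 2 to 1 in each remaining contrast. With the block the AAV9-GFP calls of Scn3b (adjusted p = 0.0527), Gja3 (0.114), Tbx5 (0.142) and Irx5 (0.153) and the AAV9-Cardinal calls of Scn4a (0.112), Fgf13 (0.131) and Dsg2 (0.199) were lost. DESeq2 called 2895, 1340, 339, 4 and 19 genes in the same order, the last for the difference in TAC response against 2 by edgeR. Without both TAC mice numbered 1 the counts were 3250, 1775, 392, 3 and 42.

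Members called in AAV9-GFP numbered 1 to 3 when each mouse was left out and 3 without both TAC mice numbered 1. In AAV9-Cardinal they numbered 0 with the block, 1 to 3 when each mouse was left out and 3 without both mice. In each case the 3 came without TAC replicate 1 of that virus. Related conduction genes called in AAV9-Cardinal numbered 1 with the block, 3 to 9 when each mouse was left out (3 without sham replicate 2 or 4 or TAC replicate 5 or 6, 9 without AAV9-GFP TAC replicate 1) and 13 without both mice. Between viruses after TAC they numbered 4 with DESeq2, 0 to 4 when each mouse was left out (4 without AAV9-Cardinal TAC replicate 1, 1 without AAV9-GFP TAC replicate 4) and 4 without both mice. AAV9-GFP TAC replicate 1 belongs to neither group of the AAV9-Cardinal comparison. It enters that comparison only through the filter, scaling and estimate of spread of the joint fit. With the block, only TAC mice 1 and 4 carry the AAV9-Cardinal response. Beyond these points of design, the cause of these changes was not tested.

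Direction turned for the values below, which were up to 0.27 in size and none of them past the threshold. With the block these were, for TAC in AAV9-Cardinal, Cacna1h at 0.0021, Tjp1 at -0.043 and Scn3b at -0.22; between viruses after TAC, Hcn2 at 0.069, Hcn4 at -0.24 and Cacna1g at 0.068; and for the difference in response, Hcn2 at 0.046 and Hcn4 at -0.13. Without both TAC mice numbered 1 they were Hcn2 at 0.00048 and Cacna1h at -0.27 in AAV9-GFP, Tbx5 at 0.014, Nkx2-5 at -0.0084 and Scn3b at -0.016 in AAV9-Cardinal, and Cacna1g at 0.0072 and Cacna1h at 0.055 between viruses after TAC. Relative to cardiomyocyte markers, Hcn2 and Gja1 in AAV9-GFP turned to 0.17 and 0.17.

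Leaving out each mouse, the ranges that crossed 0 were, for TAC in AAV9-GFP, Hcn2 -0.23 to 0.0019, Cacna1h -0.27 to 0.36 and Gja1 -0.27 to 0.024. For TAC in AAV9-Cardinal they were Cacna1h -0.29 to 0.032, Nkx2-5 -0.048 to 0.079, Scn3b -0.17 to 0.23 and Tbx5 -0.14 to 0.016. Between viruses after TAC they were Scn4b -0.31 to 0.063, Hcn2 -0.12 to 0.065, Hcn4 -0.14 to 0.29, Cacna1g -0.19 to 0.18, Cacna1h -0.35 to 0.28 and Gjc1 -0.19 to 0.044. Between viruses after sham surgery they were Hcn2 -0.12 to 0.099 and Gja5 -0.10 to 0.086. For the difference in response they were Hcn2 -0.13 to 0.097, Hcn4 -0.045 to 0.39, Cacna1g -0.31 to 0.053 and Cacna1h -0.42 to 0.20.

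On raw library totals, 2 of 32 group levels moved by more than 1 SD, Cacna1h in AAV9-GFP sham to 5.02 CPM and Gja5 in AAV9-GFP TAC to 4.95 CPM. With 4 mice a group, the SE of the log2 fold changes with TAC ran from 0.11 to 0.28 over the 8 genes.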
